A study of Drosophila melanogaster with 3 samples.

Results

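Nuclear-encoded respiratory chain genes carry the subunits of complexes I to V that are made in the cytosol and imported into mitochondria. They were taken by symbol: nuclear genes that begin with ND- (complex I), UQCR (complex III), COX (complex IV) or ATPsyn (complex V, ATP synthase), and SdhA, SdhB, SdhC and SdhD (complex II). Genes of the mitochondrial genome and of chromosome 4 were left out. The rule gave 82 of the 13855 nuclear protein-coding genes outside chromosome 4. Of these, 16 lay on 2L, 17 on 2R, 19 on 3L, 18 on 3R and 12 on X.

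Contacts of FMRP, the fragile X protein, were mapped by enhanced CLIP, in which ultraviolet light links a protein to RNA and the linked RNA is recovered and sequenced. The libraries were 2 FMRP immunoprecipitates made with FLAG beads from adult Drosophila melanogaster and 1 size-matched input. Each used whole animals, 200 flies with 100 of each sex, and the labels name intestinal progenitor cells as the cell type of the immunoprecipitates and all cells as that of the input. The labels do not say how FMRP was tagged, what drives the tagged protein, the genotypes and the age in days.

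The authors' data are 1 list of 60497 sites, each 1 nt wide with a score, and 1 list of 1829 target gene names, both for the whole series. Neither has a value per library, so depth is unknown, replicates cannot be compared, and no test over samples was possible. The score has no stated unit and serves here only to describe and rank sites. Over the whole list its median was 2.78 with quartiles of 1.08 and 6.39, and the highest 10% began at 13. As a check of the labelled cell type, 5 of 6 progenitor marker genes were on the target list, against 11.0% of all nuclear protein-coding genes outside chromosome 4. Also on it were 4 of 6 enterocyte, 2 of 3 enteroendocrine, 3 of 4 muscle and 3 of 3 ovary marker genes. The check thus did not set progenitors apart from these other cell types, and the part of the other types in the results below was not tested. Fewer cells of a type and less RNA per cell cannot be told apart in whole-animal material, and the abundance of each mRNA was not used here.

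The respiratory chain passes electrons through complexes I to IV and stores the energy as a proton gradient, which ATP synthase uses to make ATP. Its subunits come from the nuclear and the mitochondrial genome, so both sets of mRNAs must be translated in step. FMRP is known chiefly as a repressor of translation, and in mice that lack it a proton leak through the c subunit of ATP synthase has been described.

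Of the 82 genes, 6 were on the target list: ATPsynC, ATPsynB and ATPsynF of ATP synthase, COX8 and COX4 of cytochrome c oxidase, and UQCR-C1 of complex III. That is 7.32% of the genes (95% exact Clopper-Pearson interval 2.73 to 15.2, counting error only), against 11.0% of all nuclear protein-coding genes outside chromosome 4. Respiratory chain genes were short, with a median span of 1092 nt from first to last annotated base, against 2148 nt for all those genes. Between their own span quartiles, 749 and 1685 nt, 2 of 40 respiratory chain genes were targets (5.0%), against 2.56% of all 3948 genes of such span. Among genes whose span overlaps no other gene, 4 of 37 respiratory chain genes were targets (10.8%), against 10.1% of all 7304 such genes. The direction of the difference thus turned with the genes it was set against, the interval above held the 11.0%, and no difference was tested.

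At least 1 site lay in the span of 9 of the 82 genes, against 16.2% of all nuclear protein-coding genes outside chromosome 4 and 4.10% of those of like span. Besides the 6 targets these were COX7C and the complex I genes ND-15 and ND-75. The 9 spans held 219 sites, 0.362% of the list. In each of the 9 genes all sites lay on 1 strand. Sites that fall in no other gene's span were found in 7 genes, against 13.7% of all those genes: the 6 targets and ND-75.

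By complex, targets were 3 of 14 genes of complex V, 2 of 16 of complex IV, 1 of 9 of complex III, 0 of 4 of complex II and 0 of 39 of complex I. The interval for complex I reached 9.03%, under the 11.0% of all genes but above the 2.56% of genes of like span. For complex II it reached 60.2%, so its 0 says little. Complex V held 133 of the 219 sites and 116 of the 142 that lie in no other span.

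**Figure D1:**
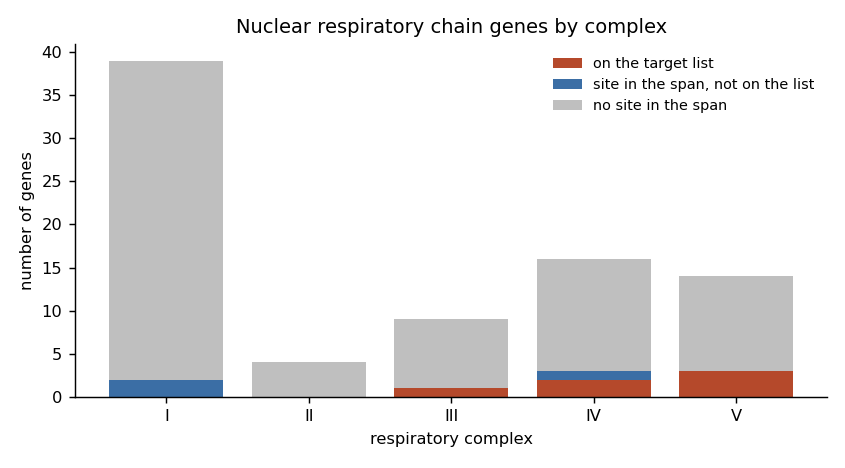
Number of nuclear respiratory chain genes (vertical axis) by complex I to V, coloured by whether the gene is on the target list, has a site in its span without being on the list, or has no site. Complex I is the set with most genes, 39, and has 0 targets, while complex V has 3 targets among 14 genes.

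ATPsynC encodes the c subunit, the small membrane protein whose ring turns as protons cross the inner membrane. It carried 79 sites on the minus strand of chromosome 3R, more than any other respiratory chain gene, with a median score of 9.03 and a highest of 19.5 at position 31218982. Of these sites, 48 were in the highest 25% of all scores and 26 in the highest 10%. Among the 1524 protein-coding targets outside chromosome 4 it ranked 179 by number of sites and 47 by sites per kb of span (22.7 per kb). The density and ranks count all 79 sites, 17 of them also in another gene's span, and no rank was computed without those. The other 5 respiratory chain targets held 78 sites together.

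The ATPsynC sites fell into 3 blocks more than 200 nt apart. The block nearest the 5′ end, as read on the sites' strand, was the most compact, with 20 sites in 40 nt between 31218964 and 31219003, about 18.0% to 19.1% of the way along the span. Its median score was 12.4, and 15 of its sites were in the highest 25%. The middle block had 35 sites in 521 nt between 31217424 and 31217944, with a median of 9.03. The block nearest the 3′ end had 24 sites in 656 nt between 31216342 and 31216997, with a median of 6.0.

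The middle block lies partly in another gene. The gene RNaseP:RNA, which makes the RNA of the tRNA-processing enzyme ribonuclease P, lies inside the ATPsynC span and is itself on the target list. It shares 17 sites with ATPsynC, between 31217424 and 31217645, with a median score of 7.99. The other 62 ATPsynC sites had a median of 10.5 and lie in no other span, among them the whole of both outer blocks. A microRNA gene in the same span, mir-4949, held 0 sites.

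ATPsynB encodes subunit b of the peripheral stalk, which holds the catalytic head of ATP synthase still while the ring turns. It had 38 sites on the plus strand of 3L, between 9730047 and 9730768, and none was shared with another gene. At 31.0 sites per kb it was the densest respiratory chain gene, ranking 17 of 1524 targets by this measure and 393 by number of sites. Scores ran from 0.315 to 16.9 with a median of 2.54, close to the median of the whole list.

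ATPsynB sites also lay in 3 blocks, and the scores differed between them. The block nearest the 5′ end had 18 sites in 43 nt, between 9730047 and 9730089, at 3.96% to 7.38% of the span, with a median of 3.82 and a highest of 16.9. The middle block had 10 sites in 98 nt between 9730355 and 9730452, with a median of 4.30 and a highest of 13.8. In the block nearest the 3′ end, 10 sites in 28 nt between 9730741 and 9730768 had a median of 1.98 and a highest of 2.54, and 0 of them reached the highest 25%, against 7 and 4 in the others.

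ATPsynF encodes subunit f, a small protein of the membrane part of the enzyme. Its 16 sites all lay within 81 nt on the minus strand of 2R, between 24599356 and 24599436, at 52.5% to 63.4% of the span. Scores ran from 0.0633 to 11.2 with a median of 4.49, and 4 sites were in the highest 25%. The span of 734 nt gave 21.8 sites per kb and rank 59 among targets. A neighbour, CG13587, overlaps the span but held 0 sites.

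COX8 encodes a small membrane subunit of cytochrome c oxidase, the complex that passes electrons to oxygen. Its 13 sites sat within 55 nt on the minus strand of 3L, between 21539273 and 21539327, at 20.5% to 29.6% of the span. Scores were higher on the 3′ side: the 5 sites nearest the 5′ end scored at most 2.66, and 4 neighbouring bases at the other end scored 10.2, 13.3, 13.3 and 8.27. COX8 has the shortest span of the targets, 589 nt, and 22.1 sites per kb placed it at rank 56.

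COX4 encodes a larger membrane-spanning subunit of the same complex. It had 7 scattered sites on the plus strand of 2L, between 19959384 and 19959552, with a median gap of 28 nt where the other ATP synthase and oxidase targets had 1 nt. From 5′ to 3′ their scores were 4.64, 4.64, 4.52, 0.0574, 2.25, 1.37 and 0.837. None was in the highest 25% of the list. Its 5.17 sites per kb gave rank 455.

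UQCR-C1 encodes a core protein of complex III, the complex that hands electrons to cytochrome c. It was the target with fewest sites, 4 on the plus strand of 3R between 14891448 and 14891525. Their scores were 0.985, 1.95, 2.0 and 1.62 from 5′ to 3′, all under the median of the whole list. Of the 92 nuclear protein-coding genes with 4 sites in the span and none of them shared, 58.7% were targets.

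**Figure D2:**
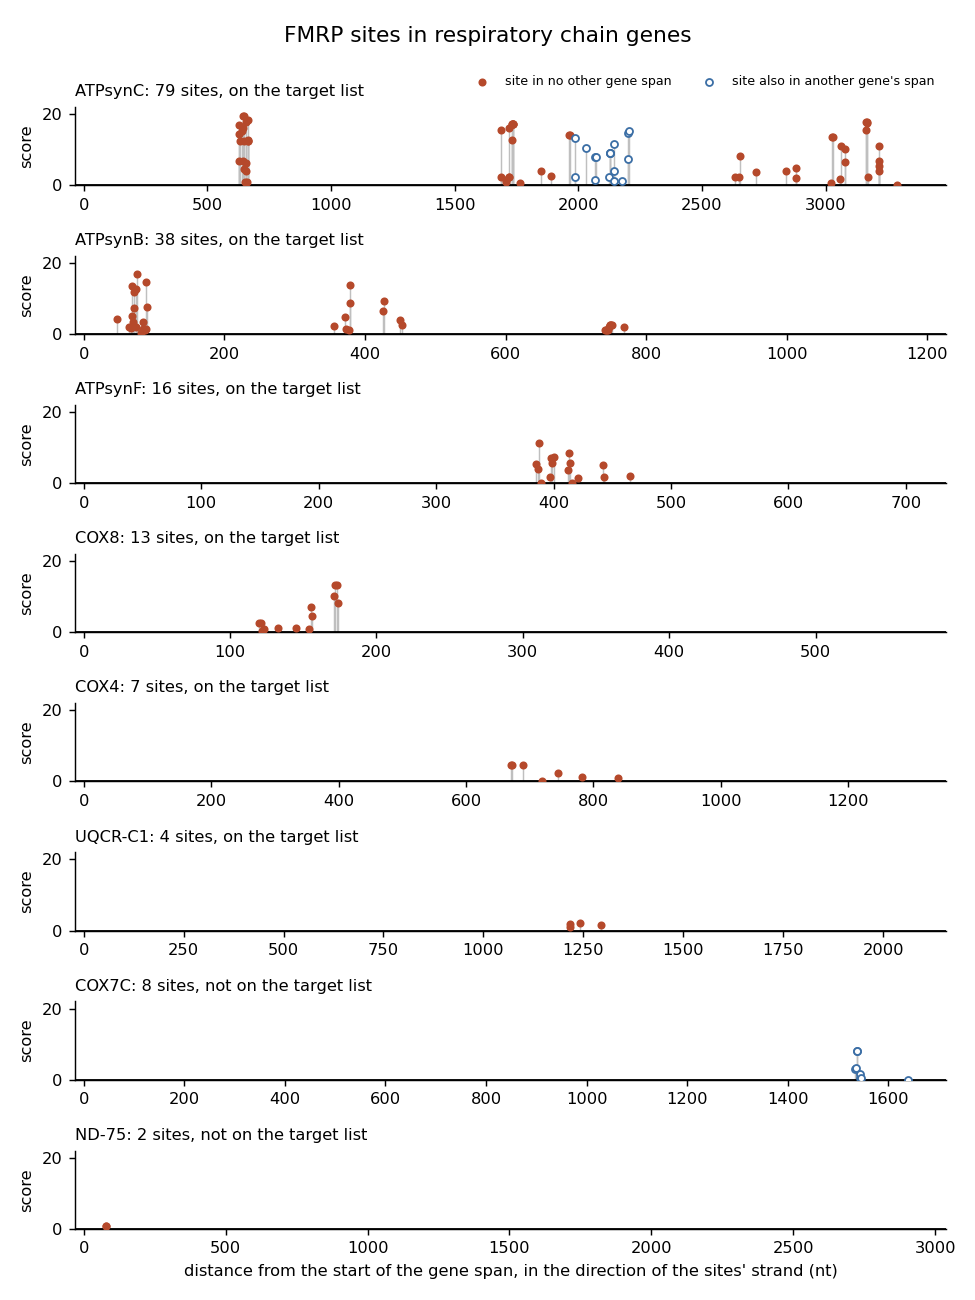
Each panel shows 1 gene, with distance in nt from the start of the gene span (read in the direction of the sites' strand) on the horizontal axis and the authors' score of each site, which has no stated unit, on the vertical axis. Filled points lie in no other gene span and open points also lie in another gene's span. ATPsynC and ATPsynB have 3 blocks each, ATPsynF and COX8 have 1 compact block, and all COX7C points are open.

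Of the genes with sites, 3 were not on the list. ND-75, the iron-sulfur subunit of complex I through which electrons pass from NADH, had 2 sites on neighbouring bases of X, 8248729 and 8248730. Their scores were 0.661 and 0.680, under the lower quartile of the list. Of the 174 nuclear protein-coding genes with 2 unshared sites, 23.6% were targets.

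COX7C, a small oxidase subunit, had 8 sites on the minus strand of 2R between 10048427 and 10048532, with scores up to 8.12. All 8 also lay in the span of oys, a membrane-bound acyltransferase gene with 141 sites that is on the target list. ND-15, an accessory subunit of complex I, had 52 sites in an annotated span of 41305 nt that overlaps many other genes. Of them 51 lay in the span of CG3164, a target, and 1 in that of CG42399. No site was left to COX7C or ND-15 alone.

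The other 73 genes had 0 sites. Since the list holds only called sites and depth is unknown, this does not show that their mRNAs had no contact. Examples, chosen after their values were seen, are ATPsyngamma, the rotating shaft of ATP synthase, UQCR-C2, the partner core protein of UQCR-C1, COX5A, ND-51, which binds NADH, and SdhA, the catalytic subunit of complex II. Within 100 nt of the spans of these 73 genes there were 0 sites on either strand. Within 500 nt, 2 genes had one, COX6B and SdhC, and within 1000 nt 8 genes did.

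None of the genes named as paralogues had a site. In 22 of the 82 genes the symbol ends in L, L1 or L2. Except in ND-MNLL, a complex I subunit, this ending marks a paralogue such as COX4L, ATPsynbetaL or ND-24L. Several of these paralogues are known in flies for expression in the testis, which was not examined here. Of the 22, 0 were targets, and all 6 targets were among the other 60 genes. Over all nuclear protein-coding genes outside chromosome 4, 16.2% had a site and 11.0% were targets. In those with spans of 749 to 1685 nt the shares were 4.10% and 2.56%, so a 0 among 22 short genes says little.

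Sites beyond the spans of the 6 targets were mostly distant. On the same strand, the nearest site upstream of a target span was 998 nt away for ATPsynB and at least 4736 nt away for the other 5. Downstream it was 7812 nt away or more for all 6. For COX7C, in contrast, the next site lay 38 nt beyond its span.

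**Figure D3:**
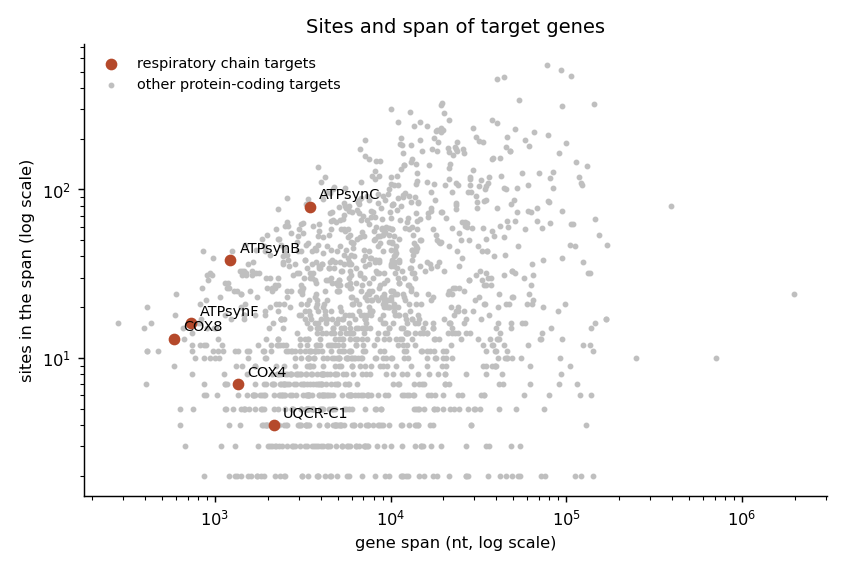
Number of sites (vertical axis, log scale) against gene span in nt (horizontal axis, log scale) for protein-coding target genes with a site, with the 6 respiratory chain targets in red. ATPsynC, ATPsynB, ATPsynF and COX8 have 21.8 to 31.0 sites per kb and lie above the median density of targets, 2.51 per kb, and UQCR-C1, at 1.85, lies below it. That median is over targets of every span.

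Numbers of sites in the 6 targets had a median of 14.5, against 16 in all 1524 protein-coding targets outside chromosome 4 (quartiles 7 and 40.25). Spans had medians of 1290 nt in the 6 and 6943 nt in all targets, and all targets had a median of 2.51 sites per kb with an upper quartile of 6.26. ATPsynB, ATPsynC, COX8 and ATPsynF, at 21.8 to 31.0 per kb, were above that quartile. COX4 was between the median and the upper quartile, and UQCR-C1, at 1.85, was below the median. These reference values cover targets of every span, and density was not set beside that of targets of like span. Other short targets had both high and low density, such as 18 sites in 590 nt in lcs and 2 sites in 865 nt in CG17169.

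Scores of the 157 sites in the 6 targets had a median of 4.64, against 2.78 over all sites, and 43.3% were in the highest 25% of the list. ATPsynC, with a median of 9.03, held 79 of these sites, and medians in the other targets ran from 1.78 to 4.49. Leaving out ATPsynC was run only over the 9 genes with a site, targets or not, where the median of 4.02 became 2.60. By complex, the medians were 5.55 for 133 sites of complex V, 2.66 for 20 of complex IV and 1.78 for 4 of complex III. The highest score of any of the 6, 19.5, was above 95.3% of all sites and far under the list's highest, 708.4.

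Sites were closely packed. Of the 151 gaps between successive sites in the 6 targets, 53.0% were to the next base, against 50.2% in all protein-coding targets outside chromosome 4, and the median gap was 1 nt in both. Gaps of at most 10 nt made up 70.2% in the 6 targets, against 61.3% in all those targets, and the difference was not tested. The longest unbroken run of sites had 6 bases and occurred in ATPsynC and in ATPsynB. With gaps of up to 10 nt allowed, the largest clusters were the 20 sites of ATPsynC's compact block and 17 sites of ATPsynB in 26 nt, from 9730064 to 9730089.

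A smaller share of sites lay near the 3′ end of the span than in protein-coding targets as a whole. Positions were read on the sites' strand, because strand is not in the gene table, and introns and untranslated regions were not separated. In the final 20% of the span lay 12.7% of the sites of the 6 targets, against 43.2% in all protein-coding targets and 22.2% in targets with at least 4 sites and a span of up to 3486 nt, that of ATPsynC. All 20 of these sites were in ATPsynC. Counted by gene, 1 of the 6 had a site there, against 1047 of 1412 targets with at least 4 sites (74.2%) and 185 of the 357 of short span (51.8%). In the first 20% lay 24.2% of the sites of the 6 targets, 18 in ATPsynB and 20 in ATPsynC, against 10.1% in all protein-coding targets and 13.9% in those of short span. With 6 genes, and sites of 1 gene not independent, these differences were not tested.

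**Figure D4:**
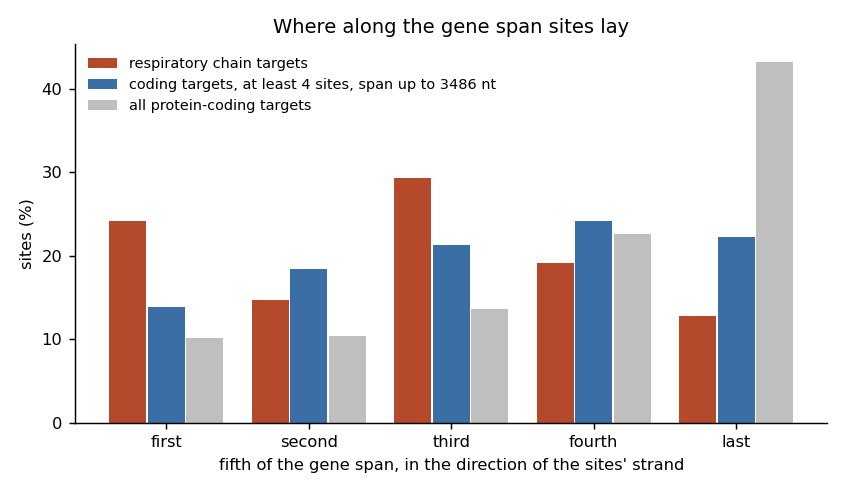
Percent of sites (vertical axis) in each successive 20% of the gene span, read on the sites' strand (horizontal axis), for the 6 respiratory chain targets, for protein-coding targets with at least 4 sites and spans up to 3486 nt, and for all protein-coding targets. The last bin holds 12.7%, 22.2% and 43.2% of sites in these sets.

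Some respiratory chain subunits have names the symbol rule does not take, and 3 of 9 such genes were targets. That is 33.3% (95% exact interval 7.49 to 70.1, counting error only), against 11.0% of all nuclear protein-coding genes outside chromosome 4. The interval held the 11.0%. The alpha subunit of the head of ATP synthase, blw, had 62 sites with a median score of 2.81 and a highest of 21.6. The oxidase subunit cype had 8 and the complex III subunit Cyt-c1 had 7. The Rieske protein RFeSP, the oxidase subunit levy, the epsilon subunit sun, ox and both cytochrome c genes, Cyt-c-p and Cyt-c-d, had 0. With these added, targets were 4 of 16 genes of complex V, 3 of 18 of complex IV and 2 of 12 of complex III. In all they were 9 of 91 (9.89%), near the 11.0% of all genes. ATPsynbeta, the catalytic beta subunit that the rule leaves out because it lies on chromosome 4, was also a target, with 16 sites and a median score of 7.02, and ND-49, a complex I gene of that chromosome, had 0 sites.

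Other mitochondrial genes were set beside the respiratory chain without a test. Targets were 7.32% of respiratory chain genes, against 9 of 19 (47.4%) citric acid cycle enzymes and inner and outer membrane carriers. Among genes whose span overlaps no other gene, they were 4 of 37 respiratory chain genes (10.8%), against 3 of 10 (30%) of these enzymes and carriers. Over all nuclear protein-coding genes outside chromosome 4 the share was 11.0%, and 10.1% in those that overlap no other gene. Ogdh, of the oxoglutarate dehydrogenase complex, had 72 sites, the channel gene porin 32 and the aconitase gene mAcon1 28. The ADP/ATP carrier genes sesB and Ant2 share all of their 73 sites. A list of regulators of mitochondrial genes, which also held genes for protein import and mitochondrial shape such as Tom40 and Marf, had 6 of 17. It was led by larp with 226 sites, clu with 69, srl (the PGC-1 homologue) with 56, pum with 47 and the import pore gene Tom40 with 43. Assembly factors and mitochondrial DNA expression genes had 2 of 17 (11.8%), near the share of all genes. They were the mitochondrial RNA polymerase gene PolrMT with 9 sites and Cox10, which acts in making the haem of the oxidase, with 6. Median spans were 3422 nt in the enzymes and carriers, 4150 nt in the regulator list and 1592 nt in the assembly list. That of respiratory chain genes was 1092 nt, and these shares were not compared at like span.

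Short genes of other large complexes spanned the range. Mitochondrial ribosomal proteins had 0 targets of 73, while cytosolic ribosomal proteins had 61 of 93 (65.6%), among them RpS5a with 100 sites, RpS7 with 89, RpL22 with 64 and RpL17 with 55. Vacuolar proton pump genes, whose product resembles ATP synthase run in reverse, had 6 of 33 (18.2%): Vha16-1 with 121 sites, Vha55 with 36, Vha44 with 24, VhaAC39-1 with 21, Vha68-2 with 17 and VhaAC45 with 4. Median spans were 1092 nt in respiratory chain genes, 909 nt in mitochondrial and 1318 nt in cytosolic ribosomal protein genes and 1732 nt in pump genes. Over all nuclear protein-coding genes outside chromosome 4 the share was 11.0%, and in those with spans of 749 to 1685 nt 2.56%. The exact interval of the 0 of 73 reached 4.93%, under the 11.0% but above the 2.56%. That of the pump genes, 6.98 to 35.5%, held the 11.0%, and that of the cytosolic ribosomal proteins, 55.0 to 75.1%, lay above it. No difference was tested.

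**Figure D5:**
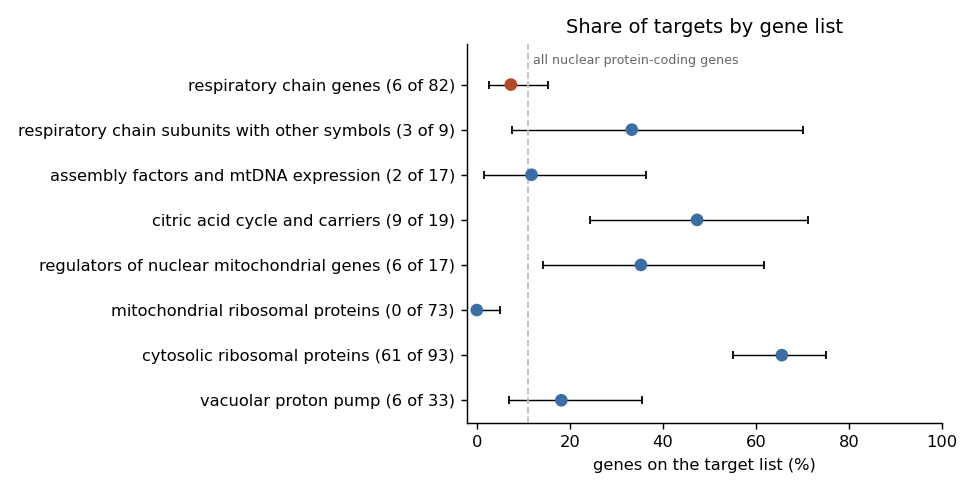
Percent of the genes of each list that are on the target list (horizontal axis), with 95% exact intervals that cover counting error only, and the number of targets and genes beside each name. The dashed line is the 11.0% of all nuclear protein-coding genes outside chromosome 4. Median spans of the lists ran from 909 to 4150 nt and were not matched. Respiratory chain genes, at 7.32%, lie between mitochondrial ribosomal proteins at 0% and the vacuolar proton pump at 18.2%.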

How the data were processed

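Both lists were used as the authors deposited them: a site list with 1 score per 1 nt site, and a list of target names. Per the submitters' processing notes, the tools included STAR 2.7.3a, cutadapt 2.9, SAMtools 1.10, UMI-tools and DESeq2, for steps that are not described. The site caller, its use of the input, pooling of the immunoprecipitates and the rule for targets are likewise not described, so input background could not be set beside the values. The score is deposited without a unit.

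RefSeq's gene table for Drosophila Release 6 gave the gene spans, and target names were found in it by current symbol (1752), synonym of 1 gene (65) or locus tag (11), and 1 was not matched to a gene with coordinates. The site list names no build: 1822 target genes held a site as deposited, but only 458 and 457 did once every site was shifted 100000 nt to one or the other side, and for the 6 respiratory chain targets the counts were 6 as deposited, and 0 and 1 after the shifts. Coordinates are the site list's, counted from 1.

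The gene table has no strand, exons or sequence, so sites were counted in the span on either strand instead of the gene's strand, and the planned work on exons and on sequence around sites was not done. Spans include introns. Counting was checked on simulated sites in 200 genes, with 200 counted correctly. Python 3.11.15, pandas 2.3.3, NumPy 2.4.6, SciPy 1.17.1 and matplotlib 3.10.9 were used. Genes and lists were chosen with earlier results of these data known. Every respiratory chain gene with a site is named, and of other lists up to 5 targets with most sites, except that 6 are named for the proton pump and 1 cytosolic ribosomal protein gene is not reported here.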

Additional observations from a re-analysis of the deposited data

How the results depend on the processing

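No paired analysis was possible because the lists hold no value per library, and for the same reason no library could be left out. Of 41 alternatives, 31 stayed within 1.5 times the main count or median, or within the interval of a share. The number of respiratory chain targets, 6, was 6 with current symbols only and without 15 paralogues, and 9 with subunits of other names added or with any site in place of the list. The 219 sites became 142 without those in other gene spans, 126 at or above the list's median score and 69 clusters with sites up to 10 nt apart merged. The median score of 4.02 became 2.60 without ATPsynC, and the median over genes of the highest score was 11.2. The longest run of 6 became 20 with gaps of up to 10 nt. The share of sites in the middle 60% of the span, 63.1%, was 76.9% without ATPsynC. Complex I had 2 genes with a site, and complex III had 2 targets with subunits of other names. The list of regulators of mitochondrial genes was 100% targets without overlapping genes, with 2 genes left. Exon positions and the gene's own strand were not run. Settings added after seeing the data were those on ATPsynC, span quartiles, gene overlap of the respiratory chain share, the strand with most sites, and the median score over targets alone (4.64) or over sites in no other span (4.34). Depth is unknown and limits every count of 0.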

Other observations

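A c ring gene had the most sites of the respiratory chain list and of the vacuolar pump list, a pairing picked out after the values were seen. ATPsynC, of ATP synthase, had 79 sites with a median score of 9.03. By sites per kb of span it came after ATPsynB, at 22.7 against 31.0, and pump genes were not ranked by density. Vha16-1, a ring proteolipid of the vacuolar pump, had 121 sites with a median of 4.65, while its relatives Vha16-2, Vha16-3, Vha16-4, Vha16-5, VhaPPA1-1 and VhaPPA1-2 had 0. Among genes of the head subunits, blw had 62, Vha55 had 36, Vha68-2 had 17 and ATPsynbeta, on chromosome 4, had 16. Their relatives Vha68-1, Vha68-3 and ATPsynbetaL had 1, 0 and 0. Over sites in no other gene span, ATPsynC and blw had 62 each.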
